A study of Mus musculus with 4 samples.

Results

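The genes described here are 10 ETS transcription factors listed together as broad ETS factors of blood progenitors: Etv6, Ets1, Ets2, Elf1, Elf2, Elf4, Gabpa, Elk1, Elk3 and Elk4. Membership is by gene symbol and uses no value, though the set was put together with earlier results of these data known. Of the 20207 genes in the deposited table, 9 were these factors. Elf4 was not analysed here. Of the 9, 7 passed a filter of a mean of at least 1 RPKM (reads scaled by gene length and by library size) over the libraries, as did 9380 genes in all, and Elk1 and Elk4 did not.

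The cells were LSK cells, a sort gate of blood cells without lineage markers that carry Sca-1 and Kit, in which hematopoietic stem cells and multipotent progenitors lie. They came from fetal livers of mouse embryos at E14.5, labelled wild-type or Brpf1-null, an age at which the liver is the main site of blood formation. Brpf1 encodes a scaffold and chromatin reader of MYST-family histone acetyltransferase complexes. By the labels there were 2 pairs, with 1 sample of each genotype in a pair and cells of 4 embryos pooled in each sample. The sources used here do not name the allele, the strain, or whether Brpf1 was deleted in all tissues or in blood alone. The tables of both pairs held the same values, so they were treated as 1 library per genotype (n = 1), and no p-value was computed. Whether these values belong to pair 1, to pair 2 or to reads of both merged is not resolved, so a library here may hold cells of 1 or of both samples of its genotype. Differences below are between those 2 libraries, and a fold is followed in brackets by its 95% interval from counting error, which says nothing of how embryos or pools vary. PCR copies of 1 molecule are counted as separate reads, so the interval can be too narrow.

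ETS factors share a winged helix-turn-helix DNA-binding domain that reads a GGAA core, and they differ in partners and in whether they activate or repress. Several act in the same progenitors and can occupy the same sites. Etv6 (TEL) is a repressor needed to keep adult stem cells in the marrow. Ets1 and Ets2 are activators that respond to RAS-ERK signalling. Elf1, Elf2 and Elf4 form the ELF group, Gabpa is the DNA-binding subunit of the GABP complex, and Elk1, Elk3 and Elk4 are ternary complex factors that bind DNA together with SRF.

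The libraries held about 23647985 reads (wild-type) and 22220114 reads (Brpf1-null), as read from the spacing of low RPKM values. The targeted gene, Brpf1, had 2.59 RPKM in wild-type and 2.15 RPKM in Brpf1-null, 1.20-fold lower (1.01 to 1.43), and since RPKM is summed over the gene it does not show whether a part was deleted. The genes of the LSK gate were present in both libraries: Kit was at 25.6 and 21.3 RPKM, Ly6a (Sca-1) at 10.6 and 9.51 RPKM. Transcripts of cells outside the gate were present too. All 8 hepatocyte markers were lower in Brpf1-null by 1.5-fold or more, with a summed level of 1563 RPKM against 412 RPKM, and so were all 8 erythroid markers, at 604.6 against 89.6 RPKM.

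Ets1 was the ETS factor that differed most among the 7 that passed the filter, and the remaining 6 lay within 1.5-fold. By genes at least 1.5-fold apart on the log2(RPKM + 1) scale, 1 of the 7 was lower (Ets1) and 0 were higher in the Brpf1-null library. Over all 9380 genes kept, 9.41% were lower by that much and 14.1% were higher, so a count of 1 in 7 is not apart from the background. These shares are the background of every other count of genes past 1.5-fold given here. The median log2 change of the 7 was 0.04, as was that of all genes kept (0.04), and both signs depended on scaling: centring each library on its median lowered every log2 change by 0.11, which put the members' median at −0.08. The counting interval of the fold left out 1 for 4 of the 7, where 73.1% of the genes with an estimated read number did.

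**Figure D1:**
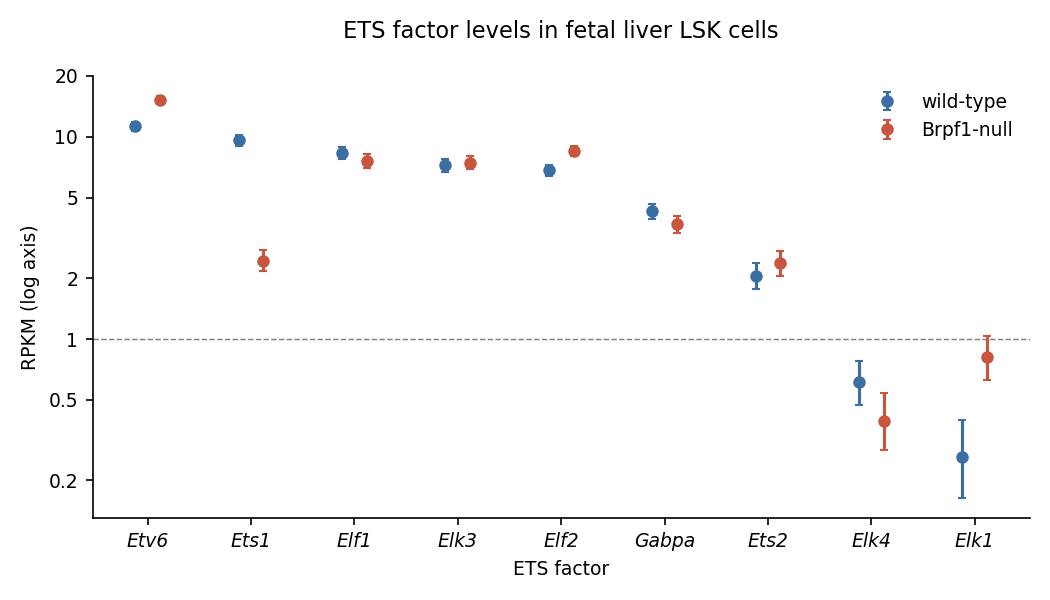
RPKM (log axis) of the 9 measured ETS factors in the wild-type (blue) and Brpf1-null (red) library, 1 library each, ordered by the wild-type level. Bars are 95% Poisson intervals of the estimated reads and the dashed line is the filter level of 1 RPKM. Ets1 stands second in wild-type at 9.59 RPKM and sixth in Brpf1-null at 2.44 RPKM, and Elk1, with the next largest fold, goes from 0.263 to 0.813 RPKM under the filter line.

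In the wild-type library the order of levels, which RPKM allows between genes because it is per length, was led by Etv6, Ets1 and Elf1 at 11.3, 9.59 and 8.30 RPKM. Elk3 and Elf2 followed at 7.23 and 6.84 RPKM, then Gabpa at 4.27 and Ets2 at 2.06 RPKM. The counting intervals of Elf1 and Elk3 overlapped, as did those of Elk3 and Elf2. Overlap of separate intervals does not show levels to be alike, and the difference of these neighbours was not tested. In the Brpf1-null library Etv6 led again, at 15.2 RPKM, followed by Elf2 (8.49), Elf1 (7.59) and Elk3 (7.44 RPKM), whose intervals overlapped from one to the next. Ets1 had moved to the level of Ets2, with 2.44 and 2.37 RPKM and overlapping intervals. The 7 genes lay on both sides of the median gene kept, which was at 6.58 RPKM in wild-type and 7.19 RPKM in Brpf1-null. Etv6 was above it in both libraries, and Gabpa and Ets2 were below it in both.

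The levels of the 9 factors summed to 50.4 RPKM in wild-type and 48.4 RPKM in Brpf1-null. Sums depend on how the libraries are scaled, and centring lowered every log2 change by 0.11. The makeup of the sum differed. Ets1 made up 19.0% of the sum in wild-type and 5.03% in Brpf1-null, and Etv6 made up 22.4% and 31.4%. A lower share of Ets1 by itself raises the shares of the other factors. Without Ets1 the sum was 40.8 RPKM in wild-type and 46.0 RPKM in Brpf1-null.

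Ets1, which is required for normal B, T and NK cell development and is also expressed in endothelium, had a level of 9.59 RPKM in wild-type and 2.44 RPKM in Brpf1-null. It was 3.94-fold lower (3.45 to 4.51) in Brpf1-null, from about 1152 and 275 reads, with a log2 change of −1.62. Of all 9380 genes kept, 105 (1.12%) had a log2 change as low or lower, and of the 2116 genes with a mean level within 1.5-fold of that of Ets1, 32 did. The log2 change was −1.74 after centring, −1.69 after quantile normalization and −1.59 once the trend of changes on transcript GC content was taken out, and it was −0.97 with a pseudocount of 5. In a bulk sample, fewer cells of a type that expresses a gene and less RNA per cell cannot be told apart.

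Markers of cells that can carry Ets1 transcripts did not all go the way of Ets1: those of B cells were lower in Brpf1-null and those of endothelium went both ways. Those of T and NK cells were near the floor except Cd4. Of 6 B-lineage markers kept, all 6 were lower in Brpf1-null by 1.5-fold or more, and the summed level of the 7 with a row was 261 RPKM in wild-type and 81.3 RPKM in Brpf1-null, with Pax5 listed at 0 in both. Cd79a, a B-cell receptor chain, was at 50.6 and 0.848 RPKM. Of 4 endothelial markers kept, 2 were lower and 1 higher by 1.5-fold, with sums over 6 genes of 36.7 and 28.3 RPKM. The lower ones were Emcn (12.7 and 5.45 RPKM) and Esam (9.56 and 4.68 RPKM), and the higher one was Tie1 (5.37 and 8.70 RPKM). Under the filter were the defining gene Cdh5, at 0.583 and 0.203 RPKM, and Kdr, at 0.132 and 0.330 RPKM. Of the 6 T and NK cell markers only Cd4 was kept, at 1.01 RPKM in wild-type and 4.29 RPKM in Brpf1-null. It made up most of the sum of the 6, which was 1.90 and 5.43 RPKM. The others were under 1 RPKM in both libraries: Cd3g and Il2rb were higher in Brpf1-null, Cd8a and Gzma were lower, and Cd3e was listed at 0 in both. The part of these cell types in the Ets1 difference was not tested.

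Ets2, the close paralog of Ets1, was at 2.06 RPKM in wild-type and 2.37 RPKM in Brpf1-null. The fold of 1.15 (0.943 to 1.41) was within counting error at about 189 and 205 reads. In wild-type the interval of Ets1 lay above that of Ets2, and in Brpf1-null the intervals overlapped.

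Etv6 was the most abundant of the factors in both libraries. It was at 11.3 RPKM in wild-type and 15.2 RPKM in Brpf1-null, 1.35-fold higher (1.26 to 1.44) from about 1479 and 1874 reads. Counting error was small here, but 23.2% of all genes kept had a log2 change as high or higher than its 0.40, which was 0.29 after centring. ETV6 represses through corepressor complexes. Of 6 corepressor genes, L3mbtl1 was listed at 0 in both libraries, and the 5 kept, among them Ncor1, Sin3a, Sin3b and Hdac3, all lay within 1.5-fold, with log2 changes from −0.46 (Sin3b) to 0.08 (Sin3a). After removal of the GC trend Sin3b was at −0.67, which is past 1.5-fold.

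The ELF factors were close between the libraries. Elf1, an activator of blood and vascular genes, was at 8.30 and 7.59 RPKM, a fold of 1.09 (0.988 to 1.21), which is within counting error. Elf2 (NERF), which is made as activating and repressing isoforms that a value per gene does not separate, was at 6.84 and 8.49 RPKM, 1.24-fold higher in Brpf1-null (1.14 to 1.36). Among 6 genes reported as targets of ELF factors, 4 were kept and all lay within 1.5-fold on the log2(RPKM + 1) scale. As plain ratios, 2 of them were past it. Klf4, a quiescence and differentiation factor, was at 2.01 and 3.49 RPKM, a ratio of 1.73 (1.41 to 2.15) and a log2 change of 0.57, and Tal1, a stem cell and erythroid factor, was at 4.93 and 3.05 RPKM, 1.62-fold lower (1.40 to 1.88) and −0.55 on the log2 scale. On that scale Tal1 passed 1.5-fold after centring (−0.66) and after removal of the GC trend (−0.65).

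**Figure D2:**
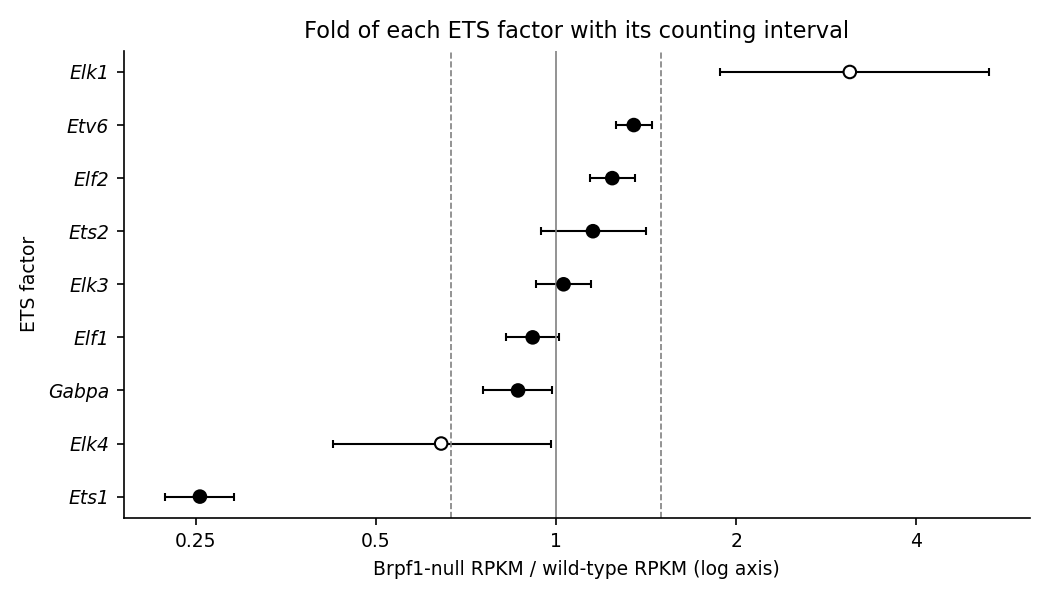
Ratio of Brpf1-null to wild-type RPKM (log axis) for each measured ETS factor, 1 library per genotype, with its 95% counting interval. Filled points passed the filter of 1 RPKM, open points did not, and dashed lines mark 1.5-fold. The interval of Ets1 lies wholly beyond 1.5-fold lower, that of Elk1 wholly beyond 1.5-fold higher, and those of Ets2, Elk3 and Elf1 include 1.

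Gabpa encodes the DNA-binding subunit of GABP, an ETS complex of nuclear-encoded mitochondrial and other housekeeping promoters. Gabpa had 4.27 RPKM in wild-type and 3.69 RPKM in Brpf1-null, 1.16-fold lower (1.01 to 1.32), and its log2 change was −0.17 as deposited and 0.02 after removal of the GC trend. Its transcript has 41.4% GC, where the median gene kept has 50.2%. Its partner Gabpb1, which supplies the activation domain, was at 9.13 and 7.60 RPKM, and the paralog Gabpb2 at 1.46 and 1.73 RPKM. The promoter window of Gabpa holds the letters CCGGAAG, which contain the GGAA core, but not the longer CCGGAAGT. The upstream sequence is shown with the letters CTTCCGG, which read CCGGAAG on the other strand, in capitals, 93 bases before the annotated start. Beside it is the upstream sequence of the GABP target Tfam, where CCGGAAGT begins 47 bases before the start. They are RefSeq sequences of build GRCm38.p6, chr16:84835001-84835067 (plus strand) for Gabpa and chr10:71238054-71238121 (minus strand) for Tfam.
Gabpa: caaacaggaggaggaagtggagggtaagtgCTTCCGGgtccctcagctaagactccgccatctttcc
Tfam: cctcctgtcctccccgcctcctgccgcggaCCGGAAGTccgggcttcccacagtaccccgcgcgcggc

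The letters CCGGAAG were present on either strand in 8.86% of 32851 promoter windows of 250 bases before to 50 after a start, and CCGGAAGT in 3.89%. A match is a description of the letters and does not show binding. Those shares are per window, and a gene can have several. Of the 12 listed GABP partners and targets, 10 had a window and 1, Tfam, held CCGGAAGT. Counted by gene in the same way, 806 of the 7547 genes kept with a window held it, so 1 in 10 is not apart from the background. Tfam, which packages and transcribes mitochondrial DNA, was at 12.7 and 13.6 RPKM, close between the libraries like Gabpa. Of the 12 genes listed as GABP partners and targets, all were kept, with a median log2 change of −0.09. At least 1.5-fold higher were 2 and lower was 1, where 14.1% and 9.41% of all genes kept were, and 9 lay within 1.5-fold. Polrmt, the mitochondrial RNA polymerase, was 3.57-fold higher in Brpf1-null (3.02 to 4.25), at 1.99 and 7.08 RPKM. Itgb2, the beta chain of leukocyte integrins, was 1.93-fold higher (1.78 to 2.09). Il7r, the IL-7 receptor chain needed by B-cell precursors, was 4.61-fold lower (3.84 to 5.53), at 8.53 and 1.85 RPKM, beside the lower B-lineage markers given above. The part of B-lineage cells in the Il7r difference was not tested. The mitochondrial transcription factors Tfb1m and Tfb2m were at 7.67 and 5.33 RPKM and at 8.86 and 6.64 RPKM.

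The ternary complex factors were unequal in level. Elk3 (NET), a repressor that ERK signalling turns into an activator and that is also expressed in endothelium, was the only one above 1 RPKM, at 7.23 RPKM in wild-type and 7.44 RPKM in Brpf1-null, a fold of 1.03 (0.926 to 1.14). Its log2 change of 0.04 turned to −0.08 after centring and −0.07 after quantile normalization. Elk1 and Elk4 were under 1 RPKM in both libraries, so their values rest on few reads.

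Elk1, the prototype ERK-responsive ternary complex factor, was at 0.263 RPKM in wild-type and 0.813 RPKM in Brpf1-null. It was 3.10-fold higher (1.88 to 5.28) in Brpf1-null from about 22 and 64 reads, and 0.52 on the log2(RPKM + 1) scale, short of 1.5-fold because the pseudocount exceeds the wild-type level. With a pseudocount of 0.1 the log2 change was 1.33. Elk1 lies on the X chromosome, and sex-linked transcripts differed between the libraries: Xist was at 0.319 and 0.781 RPKM, and the Y-linked genes Ddx3y at 5.87 and 1.65, Eif2s3y at 11.2 and 3.87, Kdm5d at 1.23 and 0.609 and Uty at 1.02 and 0.198 RPKM. The part of the sex of the pooled embryos in the Elk1 difference was not tested. Its neighbours on the chromosome in RefSeq's order of coding genes went both ways, with Cfp (properdin, a complement factor of myeloid cells) at 16.6 and 35.1 RPKM and Uxt at 20.3 and 15.4 RPKM.

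Elk4 (SAP-1) was at 0.610 RPKM in wild-type and 0.392 RPKM in Brpf1-null, 1.56-fold lower (1.02 to 2.36) from about 64 and 39 reads, with a log2 change of −0.21 that stayed negative after centring (−0.32). RefSeq promoter windows were at hand for 9 of the 10 factors, all but Ets1, and only Elk4 has one that holds the full CCGGAAGT. Counted by gene, 806 of the 7547 genes kept with a window held it, so 1 in 9 is not apart from the background. Elk4 has 3 annotated starts, and 1 of its 3 windows, that of the first start, holds the letters. The letters begin 68 bases before that start and are in capitals in the upstream sequence from RefSeq, GRCm38.p6, chr1:132007522-132007589 (plus strand).
Elk4: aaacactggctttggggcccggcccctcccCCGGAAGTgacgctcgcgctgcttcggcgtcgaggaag

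SRF, the DNA-bound partner of the ternary complex factors, was at 2.69 RPKM in wild-type and 5.41 RPKM in Brpf1-null, 2.01-fold higher (1.66 to 2.44). Srf has a GC-rich transcript, and its log2 change of 0.80 was 0.57 after removal of the GC trend, just under 1.5-fold. The other SRF cofactors, which compete with ternary complex factors, were within 1.5-fold: Mkl1 at 4.05 and 5.98 RPKM and Mkl2 at 4.91 and 4.24 RPKM. Of 9 immediate early targets of SRF and its cofactors, 7 were kept, 1 was higher and 1 lower by 1.5-fold and 5 lay within it on the log2(RPKM + 1) scale. Fosb, one of the 5 with a log2 change of 0.57, was at 1.55 and 2.79 RPKM, a ratio of 1.80 (1.46 to 2.24). Fos was at 25.3 and 42.4 RPKM, 1.68-fold higher (1.56 to 1.80), and Egr1 at 3.54 and 2.02 RPKM, 1.75-fold lower (1.42 to 2.18). Mcl1, a survival factor of the BCL2 family, was at 12.5 and 15.1 RPKM.

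The RAS-ERK cascade phosphorylates Ets1, Ets2 and the ternary complex factors. Of its 17 listed genes, 16 were kept, with a median log2 change of 0.25. On the log2(RPKM + 1) scale 5 were at least 1.5-fold higher in Brpf1-null and 1 was lower, where 14.1% and 9.41% of all genes kept were. The other 10 lay within 1.5-fold. Of those 10, Braf (1.83 and 0.897 RPKM) and Spry1 (2.51 and 1.54 RPKM) were past 1.5-fold as plain ratios, 2.03-fold lower (1.71 to 2.42) and 1.64-fold lower (1.24 to 2.15). Rps6ka1, an ERK-activated kinase, was at 25.5 and 50.7 RPKM, 1.99-fold higher (1.88 to 2.11). Dusp5, a nuclear ERK phosphatase, was at 1.46 and 3.12 RPKM, and Spry2, a feedback inhibitor, at 2.94 and 1.47 RPKM. The ERK1 gene Mapk3 was within 1.5-fold, at 17.8 and 25.9 RPKM. The count higher depended on scaling, with 3 higher and 2 lower after centring and 2 higher and 2 lower after removal of the GC trend.

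**Figure D3:**
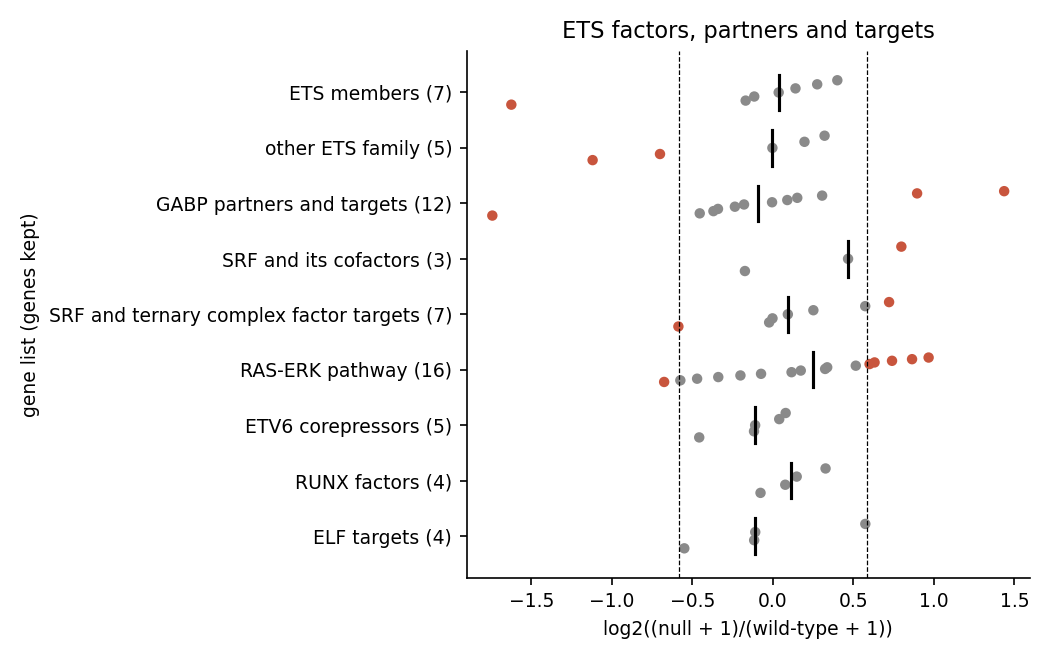
Log2((Brpf1-null RPKM + 1)/(wild-type RPKM + 1)) of each gene kept, by list, with the number kept in brackets, a black bar at the list's median and dashed lines at 1.5-fold. Red points are past 1.5-fold. The ETS members, with a median of 0.04, hold a single red point, Ets1, at −1.62.

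The rest of the ETS family was described beside these factors. Of 16 further ETS genes, 5 were kept, 0 were higher and 2 were lower by 1.5-fold, where 14.1% and 9.41% of all genes kept were. Fli1, a stem cell and megakaryocyte regulator, was more abundant than any of the 9 factors, at 25.6 RPKM in both libraries. Spi1 (PU.1, listed as Sfpi1), the factor of myeloid and B-cell fate, was at 4.63 and 2.46 RPKM, 1.88-fold lower (1.5 to 2.39). Spic, which specifies iron-recycling macrophages, was at 2.64 and 0.676 RPKM, 3.91-fold lower (2.57 to 6.35). Of 5 monocyte and macrophage markers kept, 3 were higher and 1 was lower by 1.5-fold, and the 6 with a row summed to 51.6 RPKM in wild-type and 107 RPKM in Brpf1-null. Csf1r was at 8.31 and 28.8 RPKM, Irf8 at 9.24 and 32.6 RPKM and Cd68 at 26.9 and 41.8 RPKM, while Vcam1, also a stromal gene, was at 3.53 and 0.861 RPKM. The macrophage gene Emr1 was lower but within 1.5-fold, at 3.36 and 2.54 RPKM, 1.32-fold lower (1.09 to 1.60). Cd14, under the filter, was at 0.282 and 0.210 RPKM. Neutrophil markers mostly went the other way: of 6 kept, 5 were lower by 1.5-fold, among them S100a8 at 75.59 and 21.35 RPKM. The 1 higher was Mpo, at 351 and 570 RPKM. The part of these myeloid cells in the Spi1 and Spic differences was not tested. Erg, a stem cell factor, was under the filter at 0.878 and 0.467 RPKM. Etv3 and Etv5 were at 1.97 and 2.40 RPKM and at 3.42 and 4.52 RPKM, and Fev, Etv2, Etv4, Elf3, Elf5, Ehf and Spdef were listed at 0 in both libraries.

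RUNX factors bind beside ETS1 on many lymphoid and progenitor enhancers. Their 4 genes lay within 1.5-fold, with Runx1, the main RUNX factor of blood stem cells, at 4.35 and 4.08 RPKM, Runx3 at 5.94 and 7.71 RPKM and the shared partner Cbfb at 14.3 and 15.1 RPKM.

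**Figure D4:**
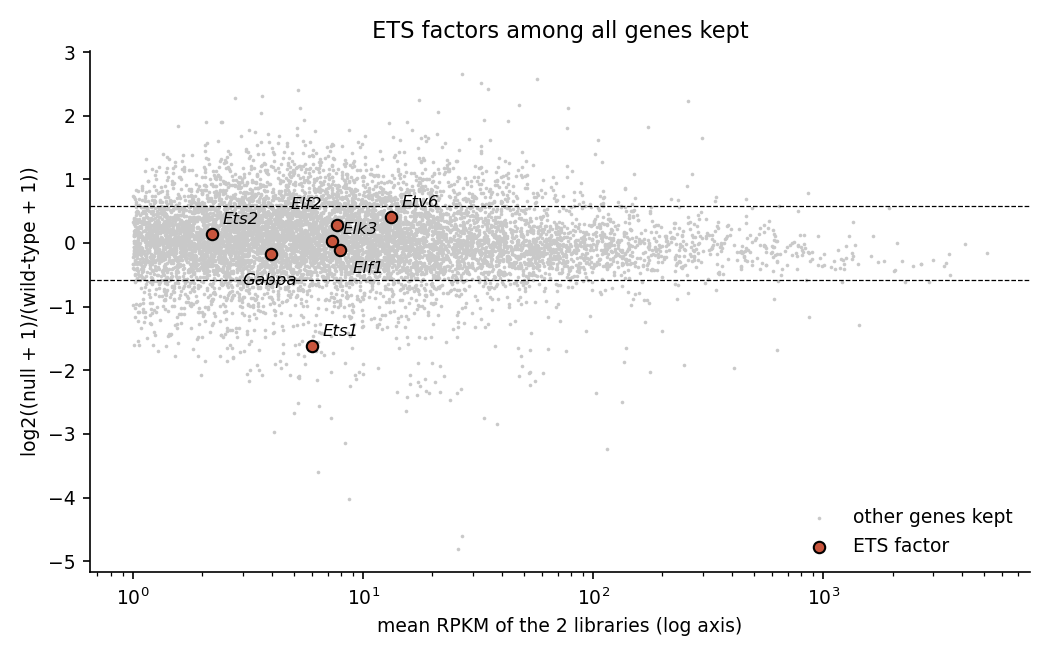
Log2 change (Brpf1-null against wild-type, pseudocount 1) against the mean RPKM of the 2 libraries (log axis) for the 9380 genes kept (grey) and the 7 ETS factors among them (red). Dashed lines mark 1.5-fold. Of the 7 factors, 6 lie in the dense band between the lines and Ets1 lies below it at −1.62.

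Ets1 and Fli1 lie next to each other in RefSeq's order of coding genes on chromosome 9, and they differed: Ets1 was 3.94-fold lower in Brpf1-null, while Fli1 was at 25.6 RPKM in both, with a ratio of Brpf1-null to wild-type of 0.998 (0.937 to 1.06) and a log2 change of −0.11 after centring. On the other side of Ets1, Kirrel3 was listed at 0 in both libraries and the next gene, the sialyltransferase gene St3gal4, was at 9.06 and 15.4 RPKM. The related pair of Ets2 and Erg on chromosome 16 was at 2.06 and 2.37 RPKM and at 0.878 and 0.467 RPKM. Over the 36 nearest coding genes of the 9 factors, 2 on each side, 18 were kept. On the log2(RPKM + 1) scale 3 were higher and 0 were lower by 1.5-fold, where 14.1% and 9.41% of all genes kept were. As plain ratios of Brpf1-null to wild-type, App (1.59), Mfsd4a (1.84) and Cdk17 (0.655) were past it as well. The neighbours were looked up after the values of the factors were seen.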

How the data were processed

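LSK samples fell into wild-type and Brpf1-null by their titles. Reads were aligned with TopHat to mm9, per the submitters' processing notes. For the counting program, its use of strand and filters on genes, nothing is given in the sources used here. Per the file headers, the authors named the unit RPKM for pair 1 and FPKM for pair 2, with a fold ratio of wild-type over Brpf1-null and its log2, as deposited. All 20207 genes had the same values in both tables (0 differed), so the values are called RPKM and taken as 1 library per genotype. The deposited ratios, which run opposite to the direction used here, were not used further.

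Changes are differences of log2(RPKM + 1), Brpf1-null minus wild-type, and are understated for low genes. Folds are ratios without a pseudocount. Library sizes were those that made low values whole reads: with them 55.4% of wild-type and 58.8% of Brpf1-null values under 40 reads came within 0.1 of a whole read, against 21.6% and 23.2% with sizes raised by 5%. Read numbers use the longest GENCODE M21 transcript with a RefSeq match (98.1% of genes had a length) and are approximate. Fold intervals are exact Clopper-Pearson at 95%, level intervals exact Poisson (scipy 1.17.1). The steps were tested on simulated data. The GC trend was a lowess curve (statsmodels 0.14.6). Members and lists were chosen with earlier results of these data known. All members are named, and of each list the genes past 1.5-fold, up to 4 by size, though some genes that this takes are not reported here. Other genes were named after their values were seen. GENCODE M21 and the RefSeq tables are of GRCm38, not mm9, and gave names, order, lengths and printed sequences. The design planned protein comparisons, which were not made.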

Additional observations from a re-analysis of the deposited data

How the results depend on the processing

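The numbers of ETS factors past 1.5-fold (0 higher, 1 lower) were the same with pseudocounts of 0.1 and 5, with no filter (9 factors), with a mean of at least 5 RPKM (5 factors), after centring, quantile normalization and removal of the GC trend, and at 2-fold. Each setting was changed alone, and the pseudocounts were varied over the 7 factors kept. Elk1, under the filter, was past 1.5-fold higher with a pseudocount of 0.1 (1.33). Lifting the filter as well would add Elk1 to the number higher. The median log2 change ran from −0.08 (centring) to 0.04. Of 41 alternative values of single factors, 3 changed sign (Gabpa after removal of the GC trend, Elk3 after centring and quantile normalization), and 4 moved further from the main value than its counting interval reaches to either side on average: Etv6 to 0.29 after centring, Ets1 to −1.93 with a pseudocount of 0.1 and −0.97 with one of 5, and Elk1 to 1.33 with a pseudocount of 0.1. No paired analysis was possible because the tables of both pairs hold the same values, and for the same reason no library could be left out. The low depth of Elk1 and Elk4 (22 to 64 reads) limits their folds. Reads of overlapping genes may be shared: by RefSeq spans, Elf1 overlaps Wbp4, Gabpa overlaps Atp5j, Elk3 overlaps Cdk17 and Elk4 overlaps Mfsd4a.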

Other observations

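Genes whose promoter window holds the ETS letters CCGGAAGT on either strand were compared with the rest. Of the 9380 genes kept, 7547 (80.5%) had a window, and 806 of these held the letters. Of genes with the letters 5.21% were lower in Brpf1-null by 1.5-fold or more, against 9.69% of the 6741 without them, and 13.6% and 14.2% were at least 1.5-fold higher. The median log2 changes were 0.08 and 0.04, and 0.07 and 0.03 after removal of the GC trend. Genes with the letters had a higher median level in wild-type (8.90 against 6.45 RPKM) and nearly the same median GC content (50.1% and 50.2%). The part of the expression level in the difference between the shares was not tested.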
